A study of Saccharomyces cerevisiae with 6 samples.

Results

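The transcripts described here are those of 35 genes by which budding yeast takes up, breaks down and assimilates nitrogen sources, together with the GATA factors that control many of them, the genes of γ-aminobutyric acid (GABA) use and *UGX2*. They were taken from the array by gene name, and all 35 were found, each with 1 probe set, among the 5449 S. cerevisiae genes that could be matched on it. RNA of 6 cultures was hybridised to 1 Affymetrix Yeast Genome 2.0 array each. In 3 of them the cells (YKG007) expressed H2B K37A, with alanine in place of lysine 37 of histone H2B, and in the other 3 the cells (YKG001) had wild-type H2B. Both strains are MATa and carry deletions of both chromosomal H2A-H2B gene pairs, (hta1-htb1)D::LEU2 and (hta2-htb2)D::TRP1, in a background that also holds leu2D1, ura3-52, lys2D1, lys2-128d, his3D200 and trp1D63. The only H2A and H2B come from a *HIS3* plasmid, pKG2 with *HTA1* and the Flag-tagged K37A allele in YKG007 and pZS145 with *HTA1* and Flag-tagged *HTB1* in YKG001, so each group is 1 strain grown as parallel cultures to mid-exponential phase in the rich medium YPD. The p-values therefore measure the spread between cultures of 1 strain each. Values are log2 signals after robust multi-array averaging (RMA), which makes the signal distributions of the arrays equal, so 1 unit is a 2-fold difference and a change common to most transcripts is removed by it.

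Yeast uses good nitrogen sources such as glutamine, glutamate and ammonium first. While they are plentiful, the cytoplasmic protein Ure2 holds back the GATA activators Gln3 and Gat1, and the genes for poor sources such as proline, allantoin, urea and GABA stay low, a state called nitrogen catabolite repression. The GATA repressors Dal80 and Gzf3 compete for the same promoter elements, and pathway activators such as Dal81, Dal82, Put3 and Uga3 respond to the particular source. YPD is rich in amino acids, so the cultures were grown under conditions in which most of these pathways are expected to be repressed.

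Of the 35 genes, 10 passed an adjusted p of 0.05 from limma, which is 28.6% of the list, where 14.5% of all 5498 S. cerevisiae probe sets tested did so. There were 4 genes higher in H2B K37A cells, *DCG1*, *DAL81*, *GLT1* and *DAL1*, against a background of 6.44% of probe sets called higher. There were 6 genes lower, *UGX2*, *PUT4*, *GDH2*, *UGA2*, *GAP1* and *UGA4*, against a background of 8.08% called lower. The remaining 25 did not pass. The study itself chose *UGX2* on these same arrays at a 2-fold cutoff, and without it 26.5% of 34 genes passed. The median log2 difference of the list was -0.0089 (K37A minus wild type), beside 0.0020 over all tested probe sets, and the median size of the difference was 0.11, beside 0.09. For 16 genes the arrays of the strains did not overlap, 9 with every K37A array above every wild-type array and 7 with every K37A array below, which is 45.7% of the list beside 42.1% of all tested probe sets (20.6% above and 21.5% below). The 95% confidence interval of the difference excluded a 2-fold change for 34 of the 35 genes and a 1.5-fold change for 31. *UGX2* was the only one at least 2-fold different, as were 0.364% of all tested probe sets. Which genes passed depended on single arrays. Of the 10, 9 passed without K37A replicate 1, 6 without K37A replicate 3, 2 without wild-type replicate 3, and 1, *PUT4*, without wild-type replicate 1. None passed without K37A replicate 2 or without wild-type replicate 2 (limma, adjusted p between 0.0553 and 0.134, and between 0.0915 and 0.129), where 14 and 13 of the 35 had an unadjusted p under 0.05, as did 1435 and 1502 of the 5498 probe sets. All 10 kept their direction in each of these fits.

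**Figure D1:**
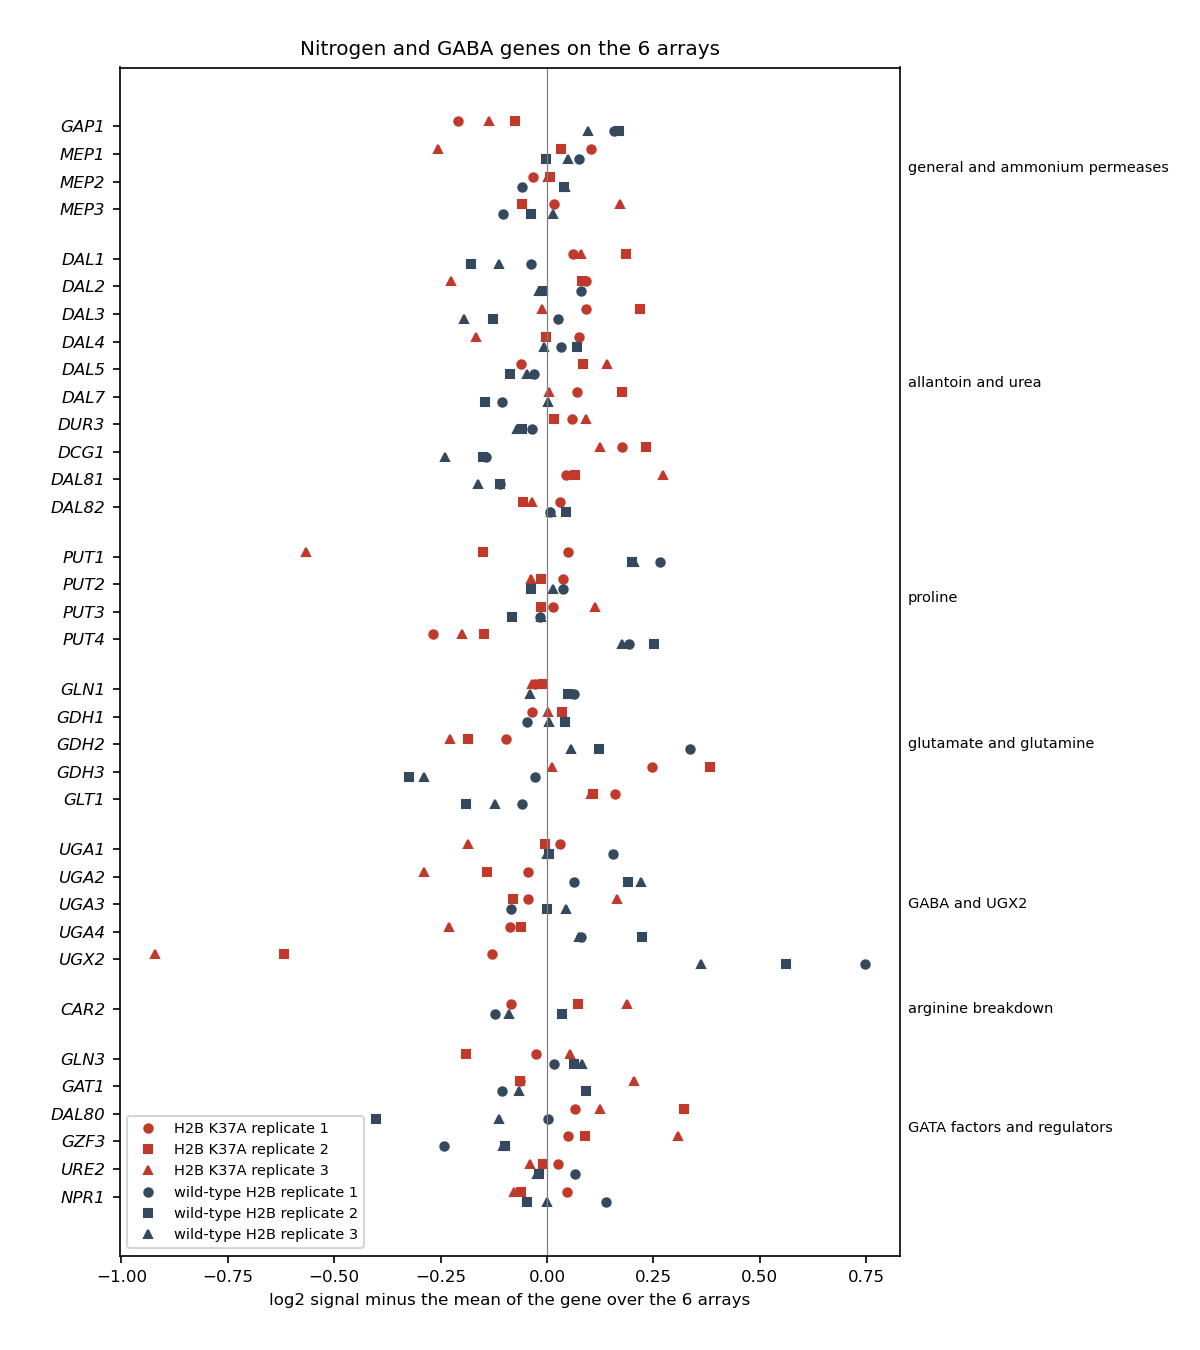
Log2 signal of each of the 35 genes on each array, minus the mean of that gene over the 6 arrays, with genes grouped by role down the page and H2B K37A (red, upper row of each pair) above wild-type H2B (dark blue, lower row). Symbols mark replicates 1 to 3; the groups do not overlap for 16 genes, and *UGX2* has the widest spread.

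**Figure D2:**
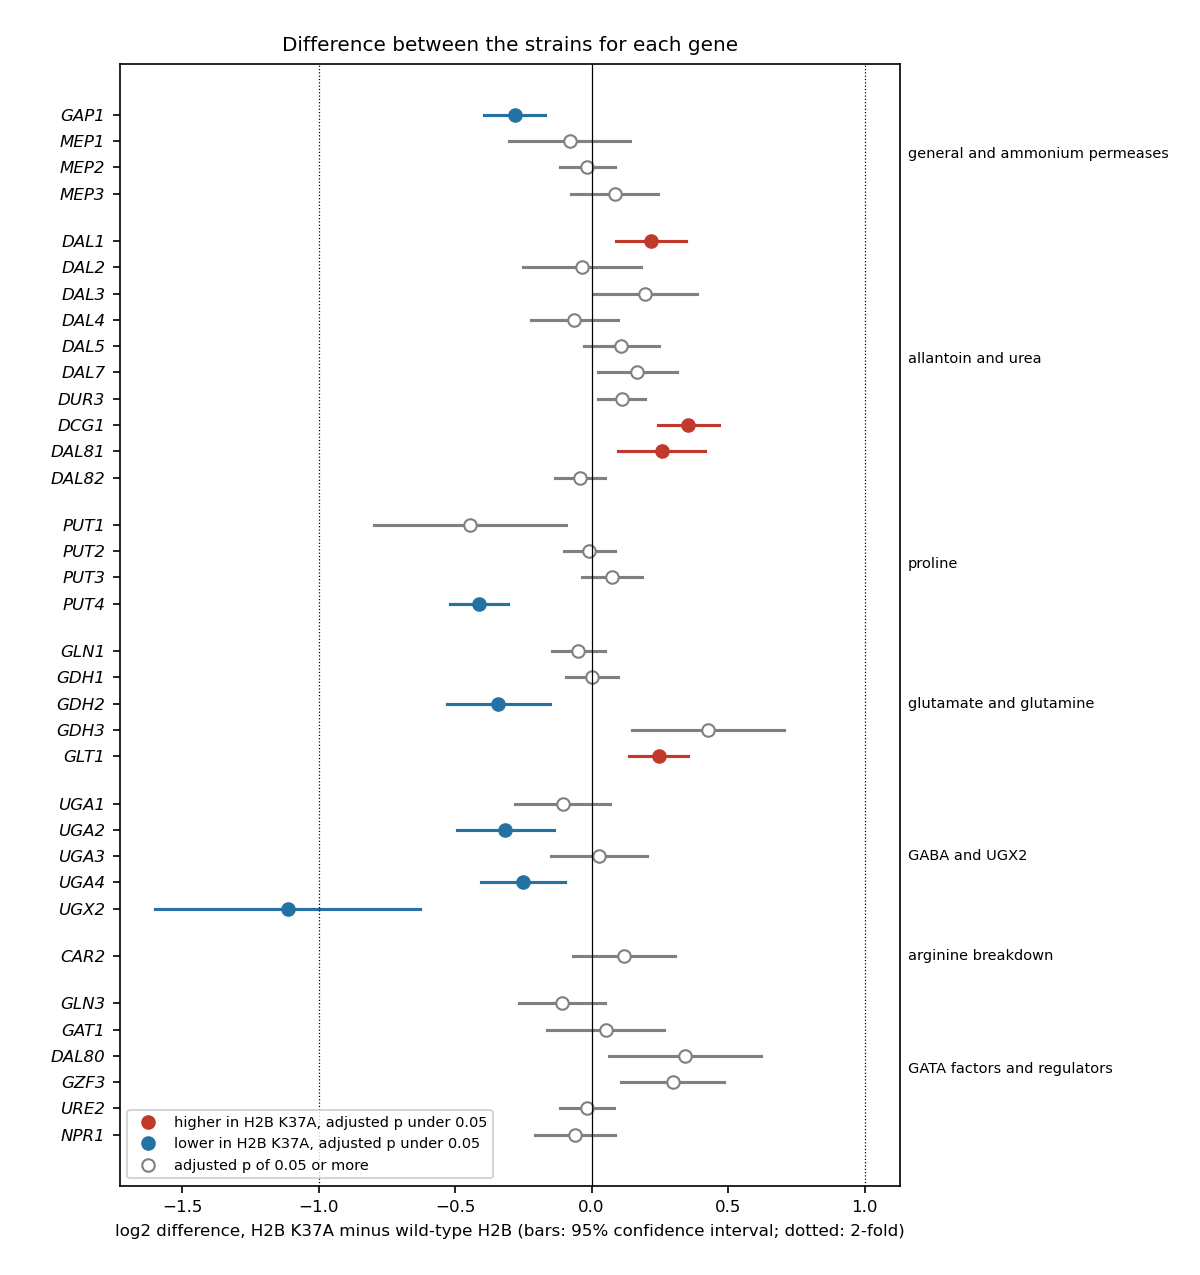
Log2 difference between H2B K37A and wild-type H2B for each gene, with its 95% confidence interval from limma. Filled points passed an adjusted p of 0.05 (4 higher in red, 6 lower in blue), open points did not, and only the interval of *UGX2* reaches beyond the dotted 2-fold lines.

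Across the series, the median S. cerevisiae log2 signal was 11.05 to 11.10 on all arrays. Arrays correlated across genes, which are not independent replicates, with Pearson coefficients of 0.994 to 0.998 between K37A arrays, 0.997 to 0.998 between wild-type arrays and 0.984 to 0.996 between the strains. *HTB1*, which both plasmids carry with or without the K37A change, gave 14.43, 14.43 and 14.39 in K37A cells and 14.47, 14.49 and 14.48 in wild-type cells, a log2 difference of -0.06 without overlap that did not pass (limma adjusted p = 0.239). *HTB2*, labelled as deleted in both strains, still read 10.59, 10.51 and 10.40 in K37A cells and 10.59, 10.49 and 10.37 in wild-type cells, and what its probes detected was not tested. Signals of probe sets named for genes outside the S. cerevisiae table, mostly those of Schizosaccharomyces pombe, served as background, with a 95th percentile of 6.30. Among the 35 genes, only *DAL80* had arrays below that level.

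Permeases of single pathways, such as Put4 and Uga4, are described with those pathways. Of the 4 genes for the general amino acid permease and the ammonium transporters, 1 passed, beside 14.5% of all tested probe sets. This was *GAP1* (YKR039W), which encodes the general amino acid permease and is a classic target of nitrogen catabolite repression. Its log2 signal was 9.21, 9.34 and 9.28 in H2B K37A cells, against 9.58, 9.59 and 9.52 in wild-type cells. Every K37A culture lay below every wild-type culture, and the gap between the groups exceeded the spread within either. *GAP1* differed by -0.28 on the log2 scale, or 0.823 of the wild-type level (standard error, SE, 0.05, limma adjusted p = 0.0218). The call was lost without any single wild-type array (adjusted p up to 0.0937) or without K37A replicate 2. The ammonium transporters *MEP1*, *MEP2* and *MEP3*, of which Mep2 also acts as a sensor for filamentous growth, had log2 differences of -0.08, -0.02 and 0.09, and none passed (limma, adjusted p of 0.581, 0.832 and 0.410). *MEP1* gave 10.36, 10.29 and 10.002 in K37A cells and 10.33, 10.26 and 10.31 in wild-type cells, and its difference was 0.03 without K37A replicate 3, the lowest array. Relative to *MEP1* on the same array, *MEP3* gave a log2 difference of 0.17 with overlapping groups (two-sided exact permutation p = 0.6, adjusted p = 0.675). Npr1, the kinase that keeps these permeases at the plasma membrane when nitrogen is poor, had a transcript difference of -0.06 for *NPR1* (limma adjusted p = 0.517).

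Allantoin, a purine breakdown product, is opened and degraded to urea by the products of *DAL1* (allantoinase), *DAL2* (allantoicase) and *DAL3* (ureidoglycolate lyase). *DAL7* encodes a malate synthase that acts on the glyoxylate released. Among the 10 genes of allantoin and urea use, 3 passed as higher in H2B K37A cells and 0 as lower, beside 6.44% and 8.08% of all tested probe sets, with a median log2 difference of 0.14. *DCG1* (YIR030C), whose product has no settled function but which lies inside the *DAL* gene cluster, gave 9.55, 9.60 and 9.49 in K37A cells and 9.23, 9.22 and 9.13 in wild-type cells. The lowest K37A array was thus well above the highest wild-type array. *DCG1* rose by 0.35 on the log2 scale, a ratio of 1.28 (SE 0.05, limma adjusted p = 0.0163). This call was lost without wild-type replicate 1, wild-type replicate 2 or K37A replicate 2 (adjusted p up to 0.0916). *DAL81* (YIR023W), an activator shared by the allantoin, urea and GABA pathways, gave 10.14, 10.16 and 10.37 in K37A cells and 9.98, 9.98 and 9.93 in wild-type cells. Its K37A replicate 3 stood above the other mutant arrays, and all K37A arrays were above all wild-type arrays. The difference was 0.26, a ratio of 1.19 (SE 0.07, limma adjusted p = 0.0493), and it was 0.18 without K37A replicate 3, which still passed. *DAL1* (YIR027C) gave 8.11, 8.24 and 8.13 in K37A cells and 8.01, 7.87 and 7.94 in wild-type cells, groups that lie close together without overlapping. The difference was 0.22, a ratio of 1.16 (SE 0.05, limma adjusted p = 0.0447). For *DAL1* and *DAL81* the call was lost when any wild-type array or K37A replicate 2 was left out, and for *DAL1* also without K37A replicate 3 (adjusted p up to 0.134 and 0.127).

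The other allantoin and urea genes did not pass. *DUR3*, the urea and polyamine transporter, and *DAL7* had every K37A array above every wild-type array, with log2 differences of 0.11 and 0.17 (limma, adjusted p of 0.0815 and 0.105). *DAL3* and *DAL5*, the allantoate permease, had differences of 0.20 and 0.11 with overlapping groups. *DAL2*, *DAL4*, the allantoin permease, and *DAL82*, the activator that mediates allophanate induction, lay at -0.03, -0.06 and -0.04. The values of *DAL2* were 9.45, 9.44 and 9.14 in K37A cells and 9.44, 9.35 and 9.34 in wild-type cells. The lowest K37A value was again that of replicate 3, and the difference was 0.07 without it.

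A run of 6 of these genes stands side by side on chromosome IX in the R64 gene table, in the order *DAL1*, *DAL4*, *DAL2*, *DCG1*, *DAL7*, *DAL3*, with *DAL81* on the same side of the cluster as *DAL1*, beyond 3 other genes. The 4 genes on the C strand, *DAL1*, *DCG1*, *DAL7* and *DAL3*, had log2 differences of 0.22, 0.35, 0.17 and 0.20. Of these, *DAL7* and *DAL3* did not pass (limma, adjusted p of 0.105 and 0.132). The neighbours on the W strand, *DAL4* and *DAL2*, had -0.06 and -0.03. The grouping by strand was made with the values known. Strand did not divide the genes beyond the cluster in this way. *DAL81*, at 0.26, is on the W strand. The 3 genes between *DAL81* and *DAL1*, on the C, W and C strands, had differences of -0.05, -0.14 and 0.03, and none passed. Within each array, the log2 signal of *DAL1* minus that of *DAL2* differed by 0.25 between the strains, at -1.34, -1.21 and -1.004 in K37A cells and -1.43, -1.48 and -1.40 in wild-type cells. The groups did not overlap (two-sided exact permutation p = 0.1 over 3 arrays per strain, adjusted p = 0.18). This pair is 1 of 9 compared in this way. The pairs were chosen with the values known, a p of 0.1 is the smallest that 3 arrays against 3 allow, and p-values were adjusted over the 9.

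**Figure D3:**
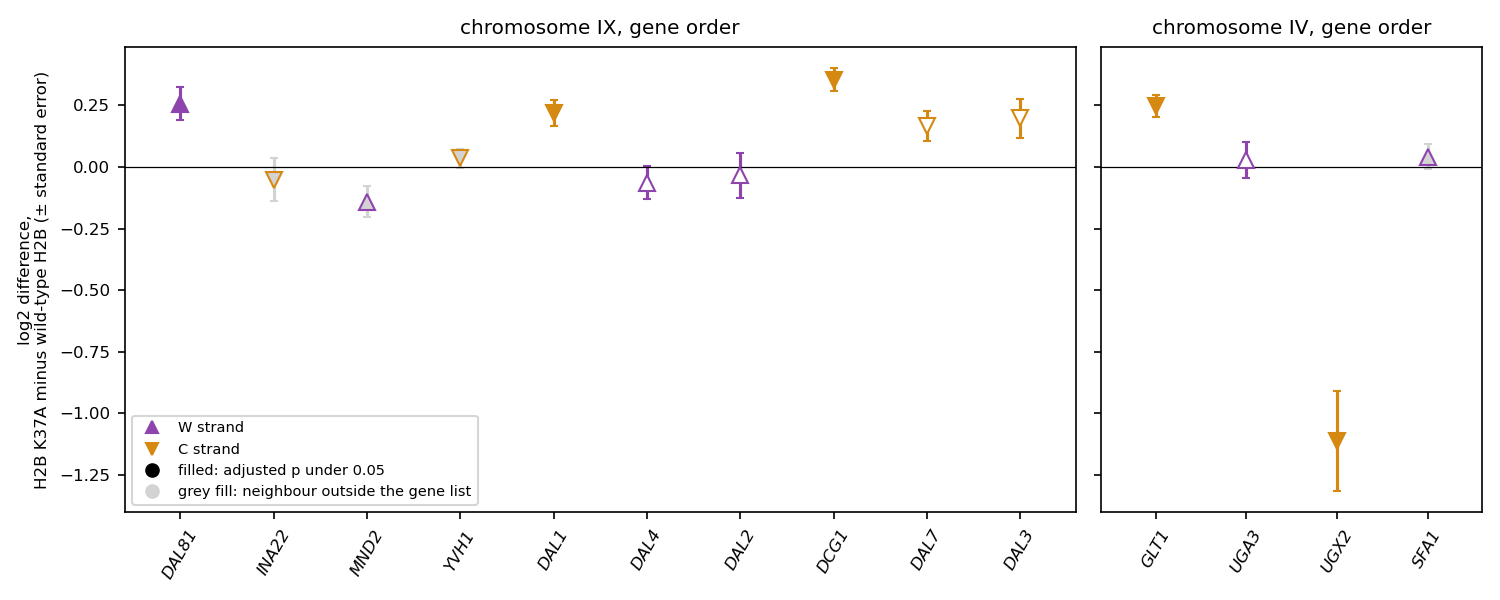
Log2 difference between H2B K37A and wild-type H2B (± standard error) for genes in their order along chromosome IX, from *DAL81* to *DAL3*, and along chromosome IV, from *GLT1* to *SFA1*. Up and down triangles mark the W and C strands, filled symbols passed an adjusted p of 0.05 and grey ones are neighbours outside the gene list. The C-strand *DAL* genes and *DCG1* lie at 0.17 to 0.35, and *DAL81*, on the W strand, at 0.26. *UGX2* lies at -1.11 between neighbours at 0.03 and 0.04.

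Proline enters the cell through Put4 and is oxidised in mitochondria by Put1, proline oxidase, and Put2, which makes glutamate. *PUT4* (YOR348C), the proline permease gene, gave 6.72, 6.84 and 6.78 in H2B K37A cells and 7.18, 7.24 and 7.16 in wild-type cells. The cultures of each strain lay close together and the strains were clearly apart, although all 6 signals were near the background level of 6.30, where RMA compresses differences. *PUT4* was lower by a log2 difference of -0.41, a ratio of 0.751 (SE 0.04, limma adjusted p = 0.0123), which gave it the smallest adjusted p of the 35. It passed in 12 of the 14 alternative fits, failing without wild-type replicate 2 or K37A replicate 2 (adjusted p up to 0.0915). *PUT1* (YLR142W) gave 10.99, 10.79 and 10.37 in K37A cells and 11.20, 11.14 and 11.14 in wild-type cells. The wild-type cultures were tight and the mutant ones spread widely, with K37A replicate 3 lowest. The difference of -0.45 (SE 0.15, limma adjusted p = 0.0822) did not pass and was -0.27 without K37A replicate 3. It was -0.58 without K37A replicate 1 and -0.36 with array weights, and passed in both fits (limma, adjusted p of 0.0266 and 0.0167). *PUT2* and *PUT3*, the proline-responsive activator, lay at -0.0089 and 0.08, with overlapping groups. Within arrays, *PUT1* relative to *PUT2* gave a log2 difference between K37A and wild-type cells of -0.44, without overlap (two-sided exact permutation p = 0.1 over 3 arrays per strain, adjusted p = 0.18).

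Glutamate is made from ammonium and 2-oxoglutarate by the NADPH-dependent dehydrogenases Gdh1 and Gdh3, or from glutamine by the glutamate synthase Glt1, while the NAD-dependent Gdh2 runs in the degradative direction. *GLT1* (YDL171C) gave 12.70, 12.65 and 12.64 in H2B K37A cells and 12.48, 12.35 and 12.42 in wild-type cells. It was higher on every K37A array, by 0.25 on the log2 scale, a ratio of 1.19 (SE 0.05, limma adjusted p = 0.0256). *GDH2* (YDL215C) gave 11.81, 11.72 and 11.68 in K37A cells and 12.25, 12.03 and 11.97 in wild-type cells. It was lower on every K37A array, and wild-type replicate 1 stood above the other wild-type arrays. The difference was -0.34, a ratio of 0.789 (SE 0.08, limma adjusted p = 0.0394), and -0.26 without wild-type replicate 1 (no longer past the threshold). Both calls were lost without any one of the wild-type arrays or K37A replicate 2, and that of *GDH2* also without K37A replicate 3 (adjusted p up to 0.0962 for *GLT1* and 0.124 for *GDH2*). *GDH3* (YAL062W), the isoform associated with growth on non-fermentable carbon, gave 10.49, 10.62 and 10.25 in K37A cells and 10.21, 9.92 and 9.95 in wild-type cells. Its groups came close to each other without overlapping, and the difference of 0.43, the largest positive one among the 35 genes, missed the threshold (SE 0.12, limma adjusted p = 0.0549). It was 0.53 without K37A replicate 3 and then passed. The main isoform *GDH1* had a difference of 0.00037, with means of 13.30 in both strains, and *GLN1*, glutamine synthetase, had one of -0.05. The 95% confidence intervals were -0.10 to 0.10 for *GDH1* and -0.15 to 0.05 for *GLN1*. Relative to *GDH1* on the same array, *GDH2* gave a log2 difference of -0.34 without overlap (two-sided exact permutation p = 0.1 over 3 arrays per strain, adjusted p = 0.18). Relative to *GDH1*, *GDH3* gave 0.43 with overlapping groups (two-sided exact permutation p = 0.2, adjusted p = 0.257).

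GABA enters yeast through the permease Uga4, among others, and is converted to succinate by the transaminase Uga1 and the succinate semialdehyde dehydrogenase Uga2, under the activator Uga3. *UGA2* (YBR006W) gave 11.25, 11.15 and 11.00 in H2B K37A cells and 11.36, 11.48 and 11.51 in wild-type cells. The strains were separated on every array, by a log2 difference of -0.32, a ratio of 0.803 (SE 0.07, limma adjusted p = 0.0401). *UGA4* (YDL210W) gave 9.21, 9.24 and 9.07 in K37A cells and 9.38, 9.52 and 9.37 in wild-type cells. It was also lower on every K37A array, by -0.25, a ratio of 0.840 (SE 0.06, limma adjusted p = 0.0467). The call of *UGA4* was lost when any single array was left out (adjusted p from 0.0525 to 0.129), and that of *UGA2* held only without K37A replicate 1 (adjusted p up to 0.124). *UGA1* gave 12.26, 12.22 and 12.04 in K37A cells and 12.38, 12.23 and 12.23 in wild-type cells, a difference of -0.11 with overlapping groups (limma adjusted p = 0.341). Relative to *UGA1* on the same array, *UGA2* gave a log2 difference of -0.21 with overlapping groups (two-sided exact permutation p = 0.2, adjusted p = 0.257). *UGA3* lay at 0.03 (limma adjusted p = 0.830). Outside the 35 genes, *GAD1*, the glutamate decarboxylase that makes GABA, had a difference of -0.16 that did not pass (limma adjusted p = 0.141).

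*UGX2* (YDL169C), which encodes a protein of unknown function and lies beside *UGA3*, showed the largest difference of the group. Its log2 signal was 8.33, 7.84 and 7.54 in H2B K37A cells, against 9.20, 9.02 and 8.82 in wild-type cells. The highest mutant culture was below the lowest wild-type culture, and the spread within the mutant (SD 0.40, n = 3) was wider than within the wild type (SD 0.19, n = 3). *UGX2* was lower by a log2 difference of -1.11, a ratio of 0.462 (SE 0.20, 95% confidence interval -1.60 to -0.63, limma adjusted p = 0.0255), the 11th largest difference in size among the 5498 probe sets. It is among the genes the study chose on these arrays at a 2-fold cutoff, so its size is not independent evidence. The difference was -1.33 without K37A replicate 1 and -0.93 without K37A replicate 3, both past the threshold. The call was lost without any one of the wild-type arrays or K37A replicate 2 (adjusted p up to 0.0970). With both wild-type replicate 1 and K37A replicate 3 left out the difference was -0.84 and did not pass. *GLT1*, *UGA3*, *UGX2* and *SFA1* lie in this order on chromosome IV, and *UGA3* and *SFA1*, on either side of *UGX2*, had differences of 0.03 and 0.04, neither past the threshold; *SFA1* was named with its value known. Relative to *UGA3* on the same array, the difference of *UGX2* was -1.14, without overlap (two-sided exact permutation p = 0.1 over 3 arrays per strain, adjusted p = 0.18).

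Genes that rise under stress were measured in the same cultures. On a list of 15 such genes, 5 passed as lower in H2B K37A cells and 0 as higher, beside 8.08% and 6.44% of all tested probe sets. For 12 of the 15, every K37A array lay below every wild-type array, as for 21.5% of all tested probe sets, and the median log2 difference was -0.20. The 5 that passed were the repressor gene *XBP1*, the glycogen enzyme genes *GPH1* and *GSY2*, the catalase gene *CTT1*, and *DDR2*. Their log2 differences were -0.84, -0.97, -0.50, -0.53 and -0.97. The strains overlapped for 3 of the 15, *HSP12*, *HSP26* and *GRE1*, at 0.03, -0.12 and 0.14, and none of these passed. After centring each gene over the 6 arrays, the 15 genes averaged -0.07, -0.10 and -0.38 in K37A cells and 0.30, 0.15 and 0.08 in wild-type cells. *UGX2* placed the 6 arrays in the same order as this mean did, from K37A replicate 3, the lowest, to wild-type replicate 1, the highest. That order was not particular to these genes. *GDH2* had it too, and so did the centred mean of the 10 other nitrogen genes described below, from -0.09 to 0.09. *UGX2* and the stress list were both lower in K37A cells, which already sets the order between the strains. The order within each strain rests on 3 arrays, and the list was chosen with earlier results of these data known. The part of the stress list's difference between cultures in the values of *UGX2*, or of the other genes described here, was not tested.

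**Figure D4:**
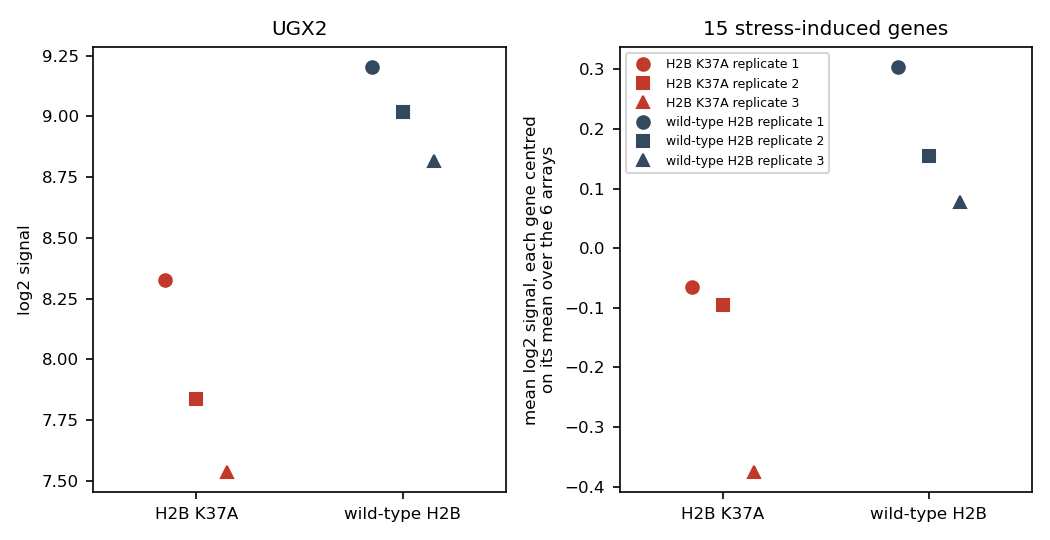
Log2 signal of *UGX2* (left panel) and mean of 15 stress-induced genes after each was centred over the 6 arrays (right panel), with H2B K37A arrays left of wild-type H2B arrays. Both panels run from K37A replicate 3, at 7.54 and -0.38, to wild-type replicate 1, at 9.20 and 0.30. *GDH2*, not shown here, orders the 6 arrays in the same way.

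None of the 6 genes of the GATA factors and other regulators passed the test, where 14.5% of all tested probe sets did. These are *GLN3*, *GAT1*, *DAL80*, *GZF3*, *URE2* and *NPR1*, the kinase gene described with the permeases. The strains did not overlap for 2 of these 6 genes, the GATA repressors *GZF3* and *DAL80*, which is 33.3% beside 42.1% of all tested probe sets. *GZF3* (YJL110C) gave 9.87, 9.91 and 10.13 in H2B K37A cells and 9.58, 9.72 and 9.72 in wild-type cells, a log2 difference of 0.30 (SE 0.08, limma adjusted p = 0.0530). It passed in 6 of the 14 alternative fits, among them the fit with arrays centred on their median (adjusted p = 0.0480). *DAL80* (YKR034W) gave 6.40, 6.66 and 6.46 in K37A cells and 6.34, 5.93 and 6.22 in wild-type cells, a difference of 0.34 (SE 0.12, limma adjusted p = 0.0900). Only 4 of its 6 values, the K37A arrays and wild-type replicate 1, exceeded the background level of 6.30, so its level in wild-type cells is close to what the array reads without the transcript. The activators *GLN3* and *GAT1* had differences of -0.11 and 0.05 with overlapping groups (limma, adjusted p of 0.286 and 0.721). *URE2* gave 11.70, 11.67 and 11.64 in K37A cells and 11.74, 11.66 and 11.65 in wild-type cells, a difference of -0.02 with a 95% confidence interval of -0.11 to 0.08. Relative to *GAT1* on the same array, *GZF3* gave a difference of 0.24, without overlap (two-sided exact permutation p = 0.1 over 3 arrays per strain, adjusted p = 0.18). The pair of *DAL80* and *GZF3* is not read here, since *DAL80* was not above background in wild-type cells. *CAR2*, ornithine transaminase of arginine breakdown, had a difference of 0.12 that did not pass (limma adjusted p = 0.328).

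**Figure D5:**
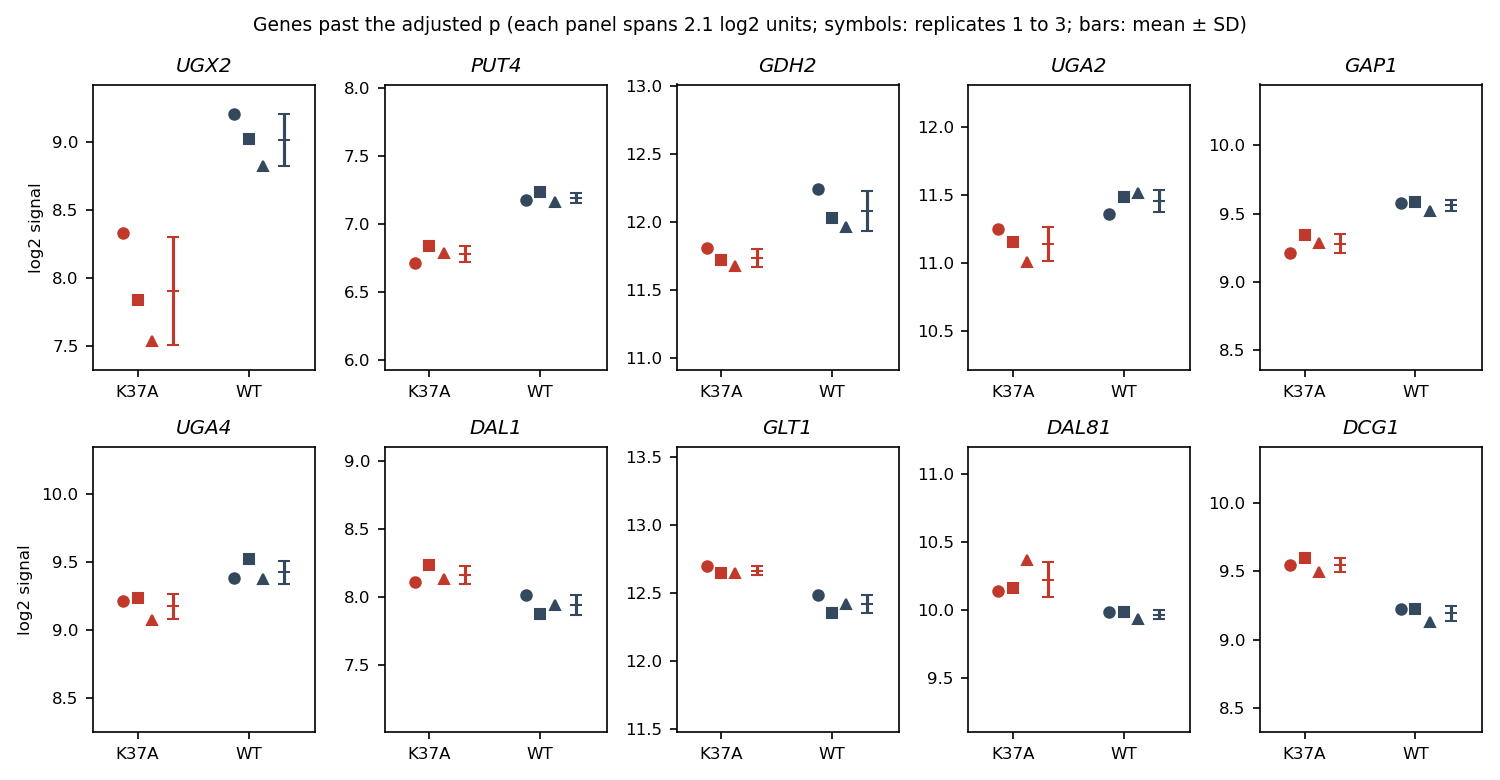
Log2 signals of the 10 genes that passed the adjusted p of 0.05, in the order of their difference, with H2B K37A left of wild-type H2B, symbols for replicates 1 to 3 and bars for the mean ± SD (n = 3). Each panel spans the same range, so the distance between strains can be compared, and it is largest for *UGX2*, at -1.11, while the other 9 lie between -0.41 and 0.35.

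Other genes of nitrogen use and its control were looked at beside these. Of 14 further genes repressed by good nitrogen sources or linked to GABA, 10 were measured, of which 2 passed as lower in H2B K37A cells and 0 as higher, beside 8.08% and 6.44% of all tested probe sets, with a median log2 difference of -0.15. The 2 were *CAR1*, arginase, at -0.20 (limma adjusted p = 0.0355) and *VID30*, a subunit of the GID ubiquitin ligase, at -0.28 (limma adjusted p = 0.0417). *AGP1*, a broad amino acid permease, lay at -0.20 and did not pass (limma adjusted p = 0.0846). Of 19 genes of the TORC1 kinase pathway and of permease sorting, which act upstream of Gln3 and Gap1, none passed limma's adjusted p. Among all tested probe sets 14.5% did. In the list of 19, 4 had an unadjusted p under 0.05, a smaller share than the 35% of all tested probe sets. The median difference was -0.03. Among them *IML1*, which restrains TORC1 when nitrogen is scarce, lay at 0.18 (limma adjusted p = 0.0790) and its partner *NPR2* at -0.16 (limma adjusted p = 0.0923).

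The 10 genes that passed differed in which cultures lay farthest from the other strain. Among the K37A arrays, replicate 3 was the farthest for 5 of the 10, replicate 1 for 3 and replicate 2 for 2.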

How the data were processed

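The deposited values are log2 signals of 10928 probe sets on 6 arrays, computed by the authors with RMA, for which the submitters' processing notes name Affymetrix Expression Console without a version. The labels give acid-extracted histones as the source but total RNA as the molecule, and the values were read as RNA. Probe sets took their gene from the platform annotation and were matched by gene ID to the R64 gene table, which left 5498 for testing. Genome coordinates are not given here. The log2 values were compared between strains with limma 3.58.1 (R 4.3.3, lmFit and eBayes, strain alone in the model), without a filter on low signals. P-values are two-sided and were adjusted by Benjamini-Hochberg over all 5498, with a threshold of 0.05. The fit was tested on simulated data. Every gene of the list could be named, and of each comparison list up to 4 with the smallest adjusted p. *GAD1*, *GSY2*, *HSP12*, *HSP26*, *GRE1* and *SFA1* go beyond that, and their values were known when they were named. The genes, the comparison lists and the pairs compared within arrays were chosen with earlier results of these data known. Alternatives were a replicate block, leaving out arrays, other sets of probe sets, median centring, repeated quantile normalization, an intensity trend and array weights. Precision is limited by having 3 arrays per strain. Promoter and protein sequences were not used here.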

Additional observations from a re-analysis of the deposited data

How the results depend on the processing

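With 3 arrays per strain, single arrays decide which genes pass. Of the 35 genes, limma called 4 higher and 6 lower in the mutant. These counts ran from 0 to 6 higher and from 0 to 6 lower when 1 array was left out, and the 798 calls over all tested probe sets from 2 to 1140 (1435 to 2049 at an unadjusted p under 0.05). Leaving out both wild-type replicate 1 and K37A replicate 3 gave 2 higher, 1 lower and 129 in all. With every probe set of the array in the adjustment the counts were 1 and 3, and 249 over the tested probe sets. Array weights, whose estimation stopped before convergence, gave 9 higher, 8 lower and 1956 in all. With the replicate number as a block there were 3 higher, 5 lower and 947 in all, with *GZF3* added and *DAL1*, *DAL81* and *UGA2* lost. The labels do not say that a number marks a shared batch, so the numbers were not taken to pair the samples. The deviations of same-numbered arrays correlated at 0.40, -0.29 and 0.23, and those of differently numbered arrays at -0.50 to 0.36. The counts were 4 to 6 higher and 4 to 6 lower with a background filter, median centring, repeated quantile normalization or an intensity trend. The background filter left all 10 past the threshold, median centring lost *UGA4*, quantile normalization lost *DAL1*, *UGA2* and *UGA4*, and the trend lost *DAL1*, while *GDH3* and *GZF3* passed in the last 3 of these fits. Every gene had 1 probe set, so averaging probe sets could not be run. Directions changed for 12 genes, none of which passed, with main differences of at most 0.11 in size. With median centring *MEP2* was 0.00070 and *PUT2* 0.0070, with repeated quantile normalization *MEP2* was 0.016, *PUT2* 0.0057 and *GDH1* -0.0014, and with array weights *DAL2* was 0.058, *UGA3* -0.054 and *GAT1* -0.049. Over the fits without 1 array, or without both wild-type replicate 1 and K37A replicate 3, the ranges were -0.15 to 0.045 for *MEP1*, -0.054 to 0.0018 for *MEP2*, -0.0094 to 0.14 for *MEP3*, -0.088 to 0.10 for *DAL2*, -0.12 to 0.0048 for *DAL4*, -0.030 to 0.024 for *PUT2*, -0.024 to 0.021 for *GDH1*, -0.15 to 0.011 for *UGA1*, -0.084 to 0.073 for *UGA3*, -0.076 to 0.11 for *GAT1*, -0.033 to 0.029 for *URE2* and -0.10 to 0.015 for *NPR1*. The cause of these changes was not tested. Signals near background, such as those of *DAL80* and *PUT4*, limit what can be read from low transcripts.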
